A study of Homo sapiens with 31 samples.

Results

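MCF10A cells held in palbociclib were compared at 24 h and at 15 h after release from starvation. MCF10A is an established, non-transformed line of human mammary epithelium that depends on serum and growth factors to divide. The comparison holds 5 of the 31 libraries of the series: 2 labelled as 24 h of CDK4/6 inhibitor (replicates 1 and 3) and 3 labelled as 15 h (replicates 1 to 3), chosen by these labels alone. All groups used here were starved for 2 to 3 days and then given full medium. The drug groups used here received 1 µM palbociclib with that medium and were sampled at 9, 12, 15 or 24 h, the vehicle groups received 0.1% DMSO instead, and the 0 h group was harvested while starved. Because the drug was given with the medium, time in the drug and time since release cannot be told apart within the palbociclib groups, and the same interval with DMSO (15 h, 3 libraries, and 24 h, 2 libraries) is given beside them. Whether replicates came from separate cultures is not stated in the labels, and the p-values therefore reflect the spread among the libraries alone, possibly a technical one.

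Palbociclib blocks the kinases CDK4 and CDK6, which pair with D cyclins and phosphorylate the retinoblastoma protein. Without that step the retinoblastoma protein holds E2F transcription factors inactive, so the genes for DNA replication that E2F drives stay low and cells stop in G1. Genes for mitosis are normally switched on later, through the B-MYB and FOXM1 factors, and their promoters often carry a short element called CHR. In arrested cells the DREAM complex keeps both groups of genes down.

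The 5 libraries held 10342358 to 18659327 gene counts, with 3.18% to 3.9% of them from mitochondrial genes and TMM factors of 0.9792 to 1.021. Most markers of the labelled cell type had counts. All 18 basal epithelial markers did, with a summed level of 33800 to 36500 CPM (gene counts scaled to library size) at 15 h and 31600 to 34200 CPM at 24 h. Of 9 general epithelial markers 8 had counts, with a sum of 724 to 743 CPM at 15 h, and GRHL2 was at 0. Of 11 luminal markers 9 had counts, with PGR and ELF5 at 0. Mesenchymal markers were also present, 14 of 16 having counts, with a sum of 1710 to 1840 CPM at 15 h. Of 9 blood and endothelial markers, 1 exceeded 1 CPM, and PTPRC and HBB were among those at 0. Replicate pairs in these groups differed by more than counting noise, the chi-square divided by its degrees of freedom being 5.57 to 11.2 at 15 h and 8.21 at 24 h.

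Between 15 and 24 h in palbociclib, 1761 of 15787 tested genes rose (11.2%) and 1469 fell (9.31%) at an adjusted p below 0.05 (edgeR quasi-likelihood test, Benjamini-Hochberg adjustment over all tested genes). These 2 shares are the background for every count of list members in this step below. Changes of at least 2-fold were fewer, with 229 genes higher (1.45%) and 194 lower (1.23%). Genes of DNA replication, mitosis, sterol and fatty acid synthesis and the circadian clock were among those that rose, and genes for matrix, actin and TGF-beta responses among those that fell. Of the genes that rose, 1758 were higher at 24 h in both numbered replicates, and of those that fell, 1467 were lower in both. Libraries of the 15 and 24 h groups did not overlap in 1738 of the genes that rose and 1453 of those that fell. All of these counts were taken among genes called on the same libraries. A call makes such outcomes likely, so they add no separate support. The number of calls depended on the 24 h libraries: without replicate 3 at 24 h, 868 genes were higher and 1123 lower, and without replicate 1 at 24 h, 1403 were higher and 900 lower. Both of those fits assume that the lone 24 h library varies like the other groups.

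**Figure D1:**
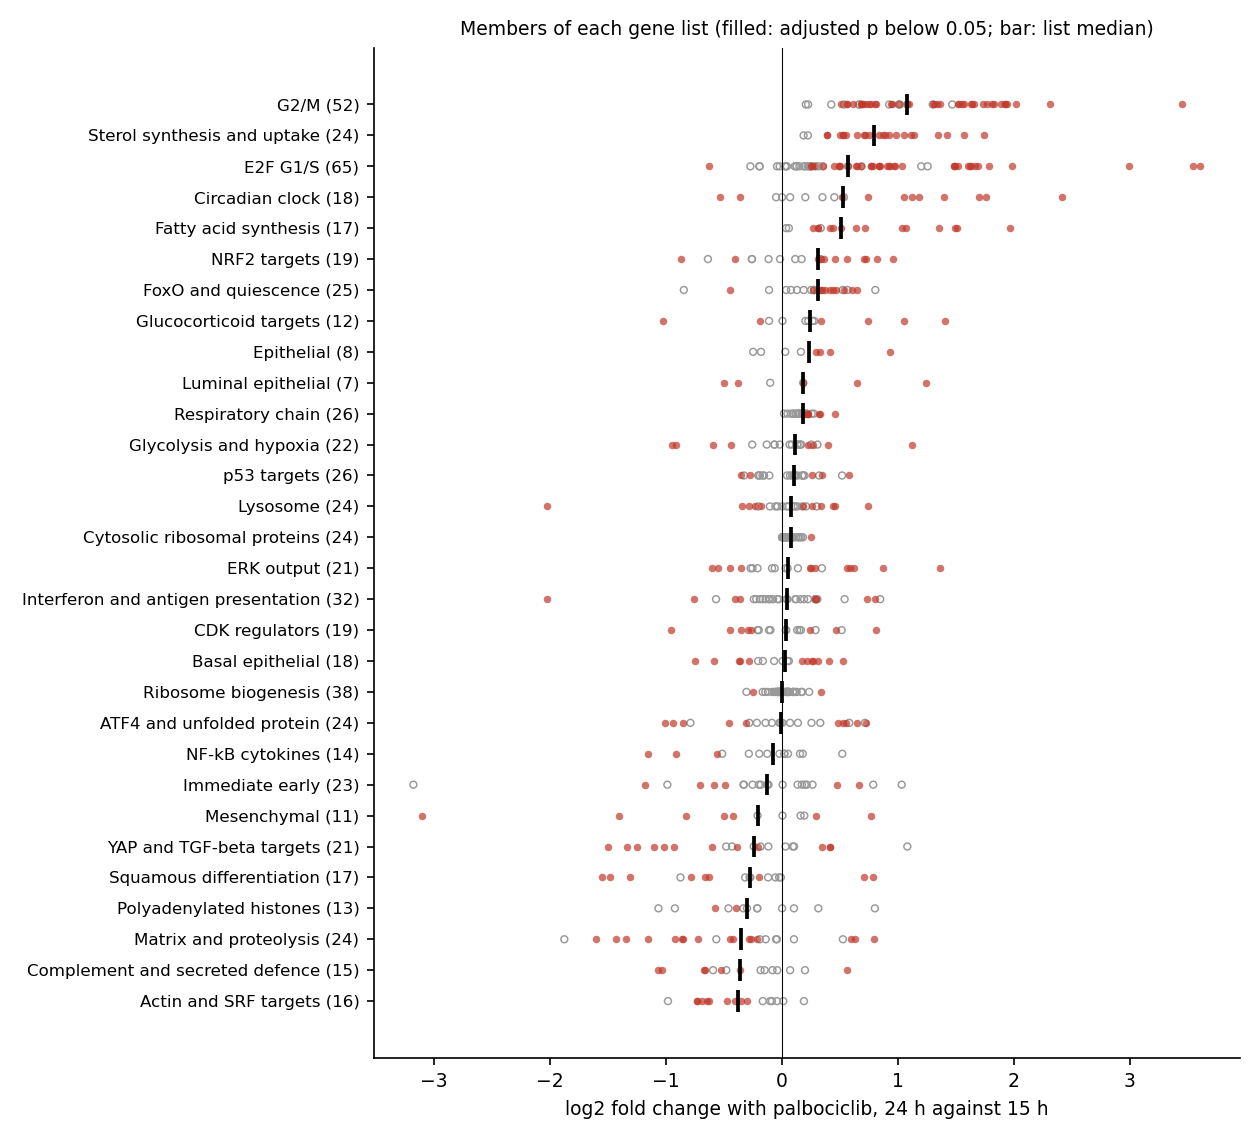
Log2 fold change from 15 to 24 h in palbociclib for each tested member of 30 gene lists, with the number tested in brackets (a list with under 5 tested members is left out). Filled points passed an adjusted p below 0.05, open points did not, and the black bar is the list median, which is highest for the G2/M list at 1.08 and lowest for the actin list at −0.38.

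Genes of the G1/S transition that E2F drives rose together late in palbociclib. Of 65 tested members of the list, 38 rose and 1 fell, against 11.2% and 9.31% of all genes, and the list's median log2 change was 0.57 against 0.01 for all tested genes. The list's mean log2 CPM was 2.48, 2.49 and 2.43 in the 15 h libraries and 3.21 and 3.18 in the 24 h libraries. The 15 h values lay next to those of the starved cells (2.45 to 2.46), and both 24 h values lay above them. The summed level of the members, which abundant genes dominate, rose by less, from 933, 938 and 921 CPM to 1193 and 1209 CPM. Leaving out any 1 of the 5 libraries left 32 to 36 members higher.

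FAM111B, a protease of the replication machinery, had the largest rise of the list. Its level was 0.17, 0.219 and 0.063 CPM at 15 h and 2.27 and 1.72 CPM at 24 h, a log2 change of 3.61 ± 0.48 (SE, edgeR quasi-likelihood test, adjusted p = 9.4e-07). MCM10, which joins the helicase when origins fire, went from 0.0852, 0.493 and 0.063 CPM to 2.18 and 3.43 CPM (log2 change 3.55 ± 0.40, adjusted p = 7e-08). Both genes were named by a rule that required the 24 h and 15 h libraries not to overlap. Every 24 h library was also above the starved cells, which held 0.458 to 0.634 CPM of FAM111B and 0.179 to 0.393 CPM of MCM10. Both genes had few reads in the 15 h libraries, so the size of these folds is less certain than their direction. The fitted folds were 12.2 for FAM111B (chromosome 11, 59107185 to 59127410, GRCh38) and 11.7 for MCM10 (chromosome 10, 13161554 to 13211104).

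E2F1, an activating member of the E2F family and itself an E2F target, had 1.36, 1.15 and 0.819 CPM at 15 h and 3.31 and 3.71 CPM at 24 h, a log2 change of 1.69 ± 0.25 (adjusted p = 6.4e-06, edgeR). The loading factors of the replication origin moved with it. CDC6 rose from 4.09, 2.96 and 3.66 CPM to 12 and 10.4 CPM (log2 1.67), and ORC6, a subunit of the origin recognition complex, from 3.58, 2.57 and 2.71 CPM to 8.9 and 8.72 CPM (log2 1.60). Of the MCM helicase subunits, MCM5 rose from 12.4, 10.1 and 9.14 CPM to 20.9 and 21.9 CPM (log2 1.04) and MCM2 from 13.5, 16.1 and 15.7 CPM to 26 and 28.2 CPM (log2 0.84). In each of these genes the 2 groups of libraries did not overlap. DTL, which directs the destruction of CDT1 during S phase, rose from 4.09, 3.72 and 4.03 CPM to 12.3 and 12 CPM (log2 1.63, adjusted p = 3.8e-09, edgeR).

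Cyclin E1 rose and cyclin E2 did not pass the test. CCNE1, the partner of CDK2 at the G1/S boundary, had 4.18, 6.35 and 3.84 CPM at 15 h and 8.14 and 7.55 CPM at 24 h (log2 0.68 ± 0.18, adjusted p = 0.0064, edgeR). Without replicate 3 at 15 h its rise no longer passed (adjusted p up to 0.18 over the 16 alternatives, edgeR). CCNE2 had 0.328 to 0.756 CPM at 15 h and 0.568 and 0.755 CPM at 24 h, and shares 37.1% of its exonic bases with another gene. Members that did not pass also included PCNA (log2 0.20), the sliding clamp, and TYMS (log2 0.19), an enzyme of thymidylate supply. These were named after their values were seen. The single member that fell was E2F7, a repressor of the E2F family, with 16.4, 16.9 and 16.1 CPM at 15 h and 12.1 and 9.54 CPM at 24 h (log2 −0.63, adjusted p = 0.00038).

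**Figure D2:**
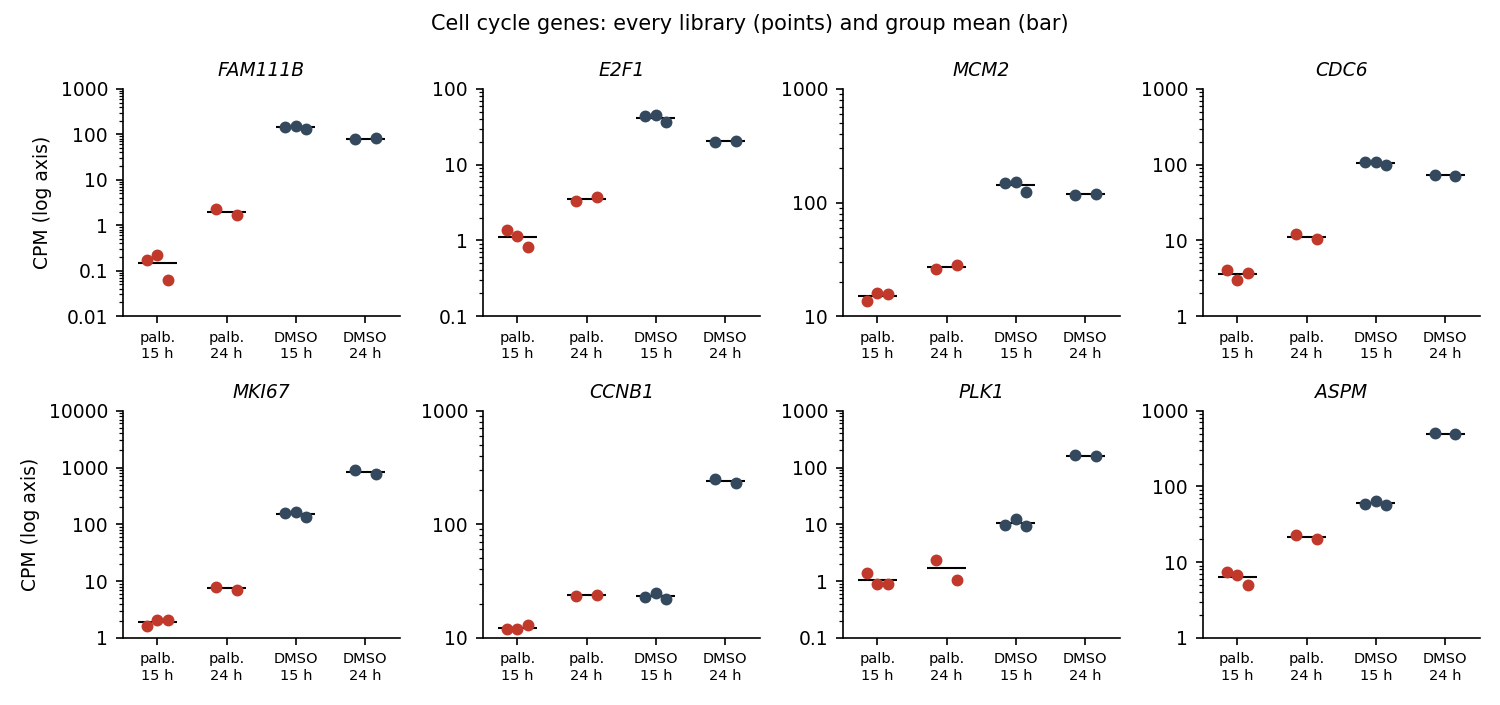
Level in every library (points, CPM on a log axis) and group mean (bar) of 8 cell cycle genes with palbociclib and with DMSO at 15 and 24 h. In all 8 panels the palbociclib libraries lie below the DMSO libraries of the same time, and CCNB1 at 24 h in palbociclib (23.4 and 23.9 CPM) lies at its DMSO level of 15 h (mean 23.1 CPM).

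Promoter sequences are shown for members that rose, to set the letters of the E2F element beside the values. RefSeq promoter windows (GRCh38.p14, 250 bases before to 50 bases after the start) were matched to 54 of the 65 tested members. The E2F letters TTTGGCGC or TTTCCCGC, on either strand, were in a window of 27 of the 54 (50%), against 2.75% of all 27305 genes in the table and 4.5% of the 11104 tested genes matched to it. The E2F list was drawn up as genes that E2F drives, so the excess over all genes describes the list, not the late step. Of the 31 matched members that rose, 14 held a match, a share no higher than that of all matched members. The 6 with the largest rise and a match within the upstream part, selected after the values were seen, are printed 5′ to 3′ on the gene's strand with the matched letters in capitals.
CDT1, chr16:88803734-88803781, plus strand: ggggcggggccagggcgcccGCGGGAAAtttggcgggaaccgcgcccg
CDC25A, chr3:48188434-48188481, minus strand: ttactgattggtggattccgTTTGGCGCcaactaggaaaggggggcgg
FAM111A, chr11:59144777-59144824, plus strand: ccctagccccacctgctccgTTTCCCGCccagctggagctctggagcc
RFC3, chr13:33818074-33818121, plus strand: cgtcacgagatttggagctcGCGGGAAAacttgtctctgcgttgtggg
MCM7, chr7:100101557-100101604, minus strand: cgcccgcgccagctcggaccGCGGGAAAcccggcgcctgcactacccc
MCM3, chr6:52284889-52284936, minus strand: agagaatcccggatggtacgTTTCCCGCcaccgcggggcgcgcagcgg
CDT1, the licensing factor of the origins, went with these letters from 1.62, 0.821 and 1.07 CPM at 15 h to 3.98 and 2.54 CPM at 24 h. CDC25A, a phosphatase that activates CDK2, went from 6.56, 6.08 and 5.04 CPM to 11.6 and 10.6 CPM. The helicase subunit MCM3 went from 61.3, 54.6 and 59.9 CPM to 79.2 and 85.8 CPM, the smallest log2 change of the 6 at 0.50. A match of letters is a description of the window and does not show that a factor was bound.

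Genes of G2 and mitosis rose as well, from lower levels. Of 52 tested members, 40 rose and none fell (edgeR; all 52 fitted changes were positive), with a median log2 change of 1.08. The list's mean log2 CPM was 1.11, 1.22 and 1.11 at 15 h and 2.32 and 2.14 at 24 h. Starved cells at 0 h, in contrast to the E2F list, held more: 2.50, 2.55 and 2.68. Leaving out any 1 of the 5 libraries left 34 to 38 members higher.

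MKI67, the gene of the proliferation marker Ki-67, had 1.62, 2.08 and 2.02 CPM at 15 h and 7.86 and 7 CPM at 24 h (fitted fold 3.8, adjusted p = 2.4e-05, edgeR). It remained below the starved cells, which had 14.2, 13.1 and 23.4 CPM. ASPM, a spindle pole protein, rose from 7.33, 6.84 and 5.04 CPM to 22.5 and 19.9 CPM (log2 1.73 ± 0.15, adjusted p = 2.3e-10), and the contractile ring protein ANLN from 7.16, 6.95 and 6.05 CPM to 20 and 18.5 CPM (log2 1.52). HMMR, a spindle-associated hyaluronan receptor, had 0.852, 0.657 and 0.504 CPM at 15 h and 4.07 and 2.68 CPM at 24 h. Both 24 h libraries were above all 15 h libraries in each of these 4 genes, which for HMMR was part of the rule by which it was named. MAD2L1, of the spindle checkpoint, rose from 6.22, 7.77 and 7.19 CPM to 18.5 and 17.8 CPM (log2 1.34).

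The mitotic cyclins rose by less. CCNB1, the cyclin that activates CDK1, had 12, 12 and 12.9 CPM at 15 h and 23.4 and 23.9 CPM at 24 h (log2 0.94 ± 0.12, adjusted p = 3.2e-07, edgeR). CCNA2 had 1.53, 1.81 and 1.51 CPM and then 3.12 and 2.68 CPM (log2 0.81, adjusted p = 0.036), and its rise did not pass when any 1 of the 5 libraries was left out (adjusted p up to 0.20 over the alternatives). PLK1, a mitotic kinase that shares 12.9% of its exonic bases with another gene, had 1.36, 0.876 and 0.882 CPM at 15 h and 2.37 and 1.03 CPM at 24 h. Its groups overlapped and the change did not pass (adjusted p = 0.19). KIF20A, a kinesin of cytokinesis, likewise did not pass (0.767, 0.711 and 0.567 CPM, then 1.23 and 0.961 CPM, adjusted p = 0.29).

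Several of the largest fitted rises rested on very few reads. CDC25C, the phosphatase that starts mitosis, had 1 read in the 15 h libraries together and 8 in the 24 h libraries, which gives a ratio of 14.6 (95% counting interval 1.96 to 648). NEIL3, a DNA glycosylase of S phase, had 2 and 13 reads (ratio 11.9, interval 2.69 to 108), and the kinesin KIF18B 3 and 16 reads (ratio 9.73, interval 2.79 to 52.1). These intervals cover counting error only, and the 3 calls did not pass without replicate 3 at 24 h. MYBL2, the gene of B-MYB, had 0, 0.0547 and 0.378 CPM at 15 h and 1.42 and 1.17 CPM at 24 h (adjusted p = 0.001, edgeR). SHCBP1, which acts in cytokinesis, rose from 0.937, 0.493 and 0.567 CPM to 4.07 and 3.91 CPM (log2 2.64), and the spindle motor KIF15 from 0.341, 0.164 and 0.378 CPM to 1.89 and 1.51 CPM (log2 2.53).

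The CHR letters TTTGAA were read in the same windows of the G2/M genes, since these members rose together. A match on either strand was found for 32 of the 45 matched members (71.1%), against 18.2% of all genes in the table and 14.1% of the matched tested genes. Genes of mitosis often carry this element, so the excess over all genes describes the list, not the late step. Of the 34 matched members that rose, 24 held a match, a share no higher than that of all matched members. In the E2F list 4 of 54 did (7.41%), and the E2F letters were in 2 of 45 G2/M windows (4.44%). The 6 with the largest rise and a match in the upstream part, again selected after the values were seen, are printed in the same way, with the CHR letters in capitals.
CDC25C, chr5:138331809-138331854, minus strand: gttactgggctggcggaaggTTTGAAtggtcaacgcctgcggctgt
HMMR, chr5:163460584-163460629, plus strand: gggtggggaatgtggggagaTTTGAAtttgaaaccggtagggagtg
KIF4A, chrX:70290050-70290095, plus strand: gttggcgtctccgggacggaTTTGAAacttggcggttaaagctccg
TOP2A, chr17:40418022-40418067, minus strand: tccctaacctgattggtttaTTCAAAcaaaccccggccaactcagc
MKI67, chr10:128126427-128126472, minus strand: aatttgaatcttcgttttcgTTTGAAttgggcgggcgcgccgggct
ASPM, chr1:197146757-197146802, minus strand: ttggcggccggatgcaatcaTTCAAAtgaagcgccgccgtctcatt
HMMR and MKI67 hold further copies of the letters in lower case beside the marked one. KIF4A, a chromosome-bound kinesin, had 0.511, 0.164 and 0.315 CPM at 15 h and 1.33 and 1.1 CPM at 24 h, and TOP2A, the topoisomerase that separates sister chromatids, 1.62, 2.19 and 1.7 CPM and then 7.76 and 6.66 CPM.

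**Figure D3:**
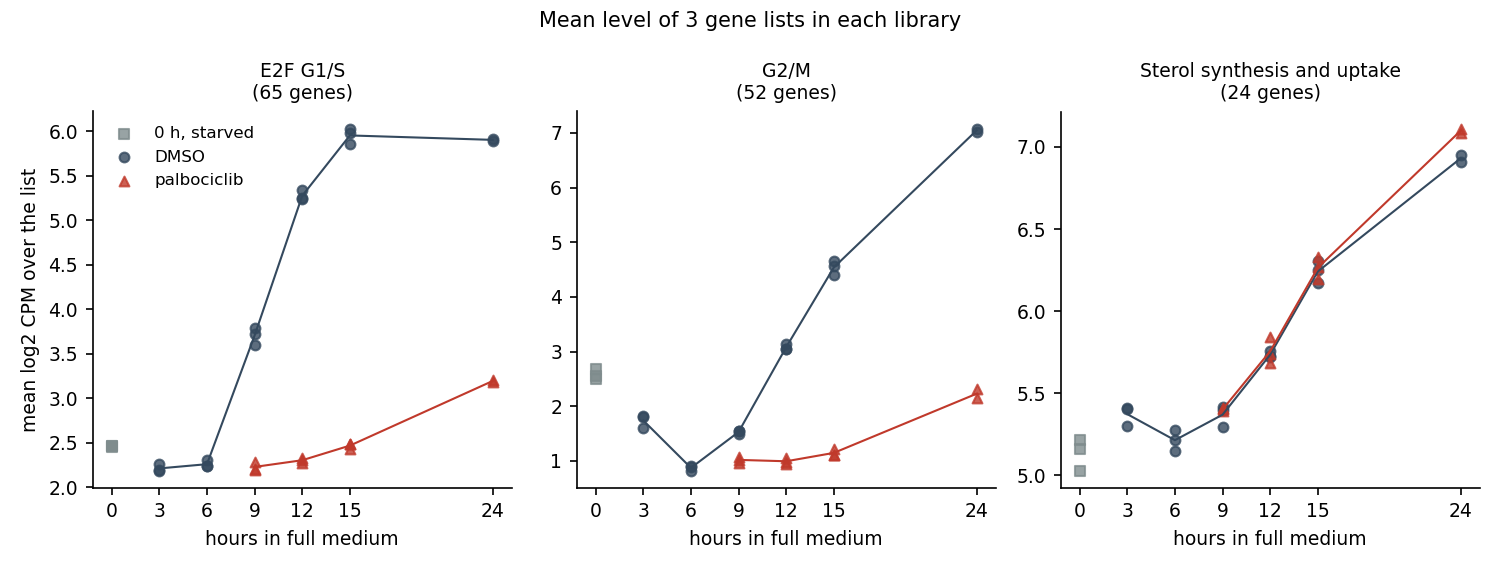
Mean log2 CPM over the members of the E2F, G2/M and sterol lists in each library (points) against hours in full medium, with lines through group means for DMSO and palbociclib and squares for the starved start. In palbociclib the E2F and G2/M lists rise between 15 and 24 h to 3.18 to 3.21 and 2.14 to 2.32, below DMSO at 24 h (5.89 to 5.91 and 7.02 to 7.08), while the sterol list reaches 7.09 to 7.11 against 6.91 to 6.95 with DMSO.

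The late rise left both cell cycle groups far below the vehicle. The E2F list had a mean log2 CPM of 5.89 and 5.91 in the DMSO libraries of 24 h, and all 65 members were lower in palbociclib at 24 h than in DMSO at 24 h, with a median ratio of 0.176. At 15 h the median ratio to DMSO was 0.122. All 52 G2/M members were lower than in DMSO at 24 h too, with a median ratio of 0.0363. MKI67 was at 886 and 769 CPM in the DMSO libraries of 24 h, and E2F1 at 19.8 and 20.7 CPM. In bulk RNA, fewer cells expressing a gene and less RNA per cell cannot be told apart, so these values do not say whether a few cells or all of them changed.

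The same interval with DMSO moved the 2 cell cycle groups differently. With DMSO, 2609 genes rose (16.5%) and 2060 fell (13%) from 15 to 24 h. Of the E2F list, 12 members rose and 23 fell with DMSO, and its median log2 change was −0.01. The difference between the 2 steps was tested as an interaction, in which 167 genes (1.06%) changed more upward in palbociclib and 303 (1.92%) more downward. Of the 65 E2F members, 30 were among the former and 2 among the latter. E2F1 fell from a mean of 41.9 CPM to 19.8 and 20.7 CPM with DMSO while it rose in palbociclib, a difference in log2 change of 2.74 ± 0.28 (SE, adjusted p = 3.3e-08, edgeR). FAM111B had the largest such difference at 4.47, followed by MCM10 at 3.94, and CDC6 (2.23) and DTL (2.14) were next to E2F1 in size.

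G2/M genes showed the opposite difference. All 52 rose with DMSO, with a median log2 change of 2.38, and 31 of them passed the interaction as lower in palbociclib, while none passed it as higher. CCNB1 went from a mean of 23.1 CPM to 253 and 230 CPM with DMSO, so that its log2 change in palbociclib was lower by 2.44 (adjusted p = 1.5e-12, edgeR). KIF20A (difference −3.59) and PLK1 (−3.27) rose with DMSO and did not pass the test in palbociclib. PIF1, a DNA helicase, had 0.189 to 0.341 CPM at 15 h and 0.189 and 0 CPM at 24 h in palbociclib, against 24.1 and 23.8 CPM at 24 h with DMSO. PSRC1, a spindle protein, had 1.92 to 2.9 CPM and then 2.27 and 2.4 CPM in palbociclib, against 39.8 and 37.3 CPM at 24 h with DMSO.

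Over all genes, most calls were shared with the vehicle. Of the genes that rose in palbociclib, 1182 also rose with DMSO, which is 67.1% of the former and 45.3% of the latter. Among those that fell, 1025 were shared (69.8% and 49.8%). Over all tested genes, 16.5% rose and 13% fell with DMSO. These 2 steps use no library in common. Opposite calls were rare: 17 genes rose in palbociclib and fell with DMSO, and 12 of these are members of the E2F list (CCNE1, CDC6, CLSPN, DTL, E2F1, FAM111B, MCM10, MCM2, MCM3, MCM4, MCM5 and ORC1). The 5 others were CELSR2, ERCC2, KIAA0895, UNG and ZNF367. Another 15 genes fell in palbociclib and rose with DMSO, among them the follistatin gene FST and the tubulin TUBB4B. These genes were named after the overlap was seen. As a description, the log2 changes of the 2 steps had a Pearson r of 0.439 over all 15787 tested genes and of 0.757 over the 9520 with a mean log2 CPM above 3. The genes share libraries and are not independent replicates.

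**Figure D4:**
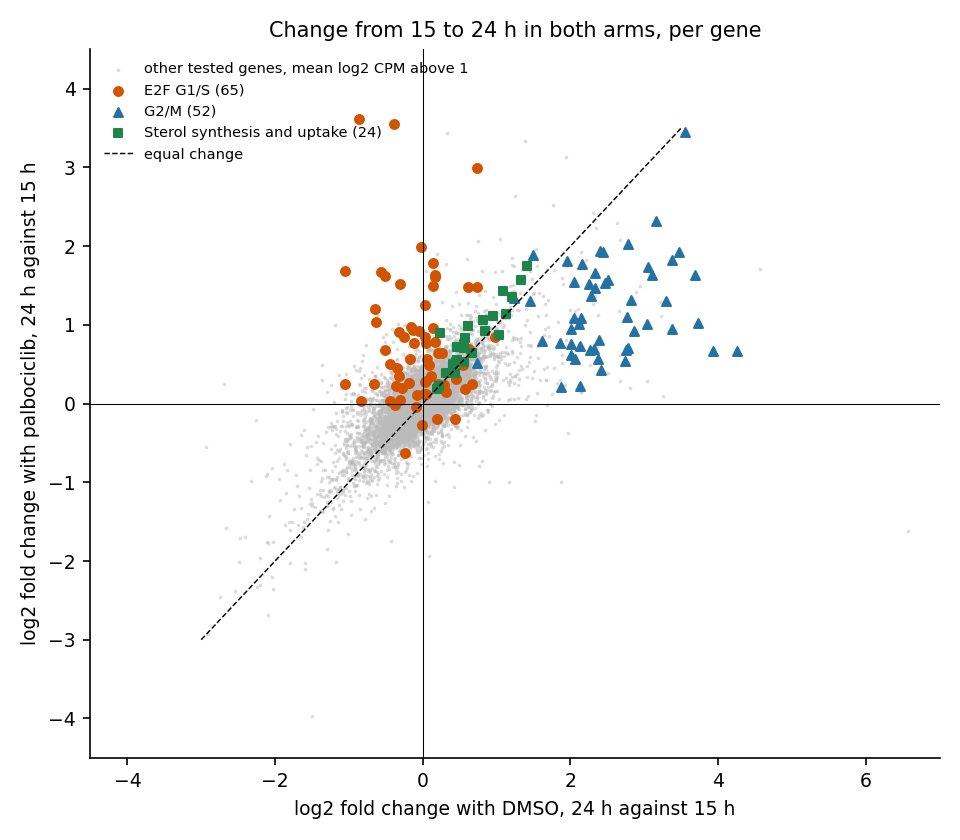
Log2 fold change from 15 to 24 h with DMSO (x axis) and with palbociclib (y axis) for 11986 genes with a mean log2 CPM above 1, of which 3 lie outside the axes, and for the members of 3 lists. Most E2F members lie above the dashed line of equal change, most G2/M members below it on the right, and sterol members along it.

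Regulators of the cyclin-dependent kinases went both ways. Of 19 tested, 3 rose and 5 fell, against 11.2% and 9.31% of all genes, with a median log2 change of 0.03. CCND1, the cyclin D1 partner of the drug's target kinases, had 546, 601 and 550 CPM at 15 h and 557 and 601 CPM at 24 h, and its groups overlapped (log2 0.03 ± 0.11, adjusted p = 0.88, edgeR). CCND2 rose from 184, 161 and 112 CPM to 298 and 236 CPM (log2 0.81, adjusted p = 0.0089), which did not pass without replicate 3 at 15 h or without replicate 1 at 24 h. RB1, the gene of the retinoblastoma protein, had 104, 129 and 127 CPM and then 115 and 111 CPM (adjusted p = 0.46). Among the inhibitors, CDKN1A, the gene of p21, fell from 184, 181 and 206 CPM to 141 and 157 CPM (log2 −0.35, adjusted p = 0.0032, edgeR; not passed without replicate 1 at 24 h), and CDKN1C, the gene of p57, from 11.8, 9.85 and 10.5 CPM to 6.15 and 4.94 CPM (log2 −0.96). CDKN1B, the gene of p27, did not pass in palbociclib (19.8, 21.6 and 20 CPM, then 19.5 and 18.6 CPM), while its step with DMSO was higher (difference −0.998, adjusted p = 1e-04, edgeR). CCNG1, a p53-responsive cyclin, had 124, 138 and 131 CPM and then 175 and 187 CPM (log2 0.47), and without replicate 3 at 15 h it was the 1 regulator still called higher. Without replicate 1 at 24 h, 3 regulators were called lower.

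Sterol synthesis genes rose nearly as a block. Of 24 tested members, 22 rose and none fell (edgeR; all 24 fitted changes were positive), with a median log2 change of 0.80. The list's mean log2 CPM was 6.20, 6.27 and 6.33 at 15 h and 7.09 and 7.11 at 24 h. The pathway makes cholesterol from acetyl-CoA through mevalonate and is driven by the SREBP-2 factor when membrane sterol is low. Leaving out any 1 of the 5 libraries left 21 or 22 members higher.

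FDPS, which makes farnesyl diphosphate, rose from 90.3, 96.8 and 102 CPM to 310 and 336 CPM (log2 1.74 ± 0.07, adjusted p = 6.2e-18, edgeR), and shares 18.6% of its exonic bases with another gene. LSS, which closes the ring of lanosterol, rose from 87.5, 83.2 and 89.2 CPM to 223 and 219 CPM (log2 1.35). FDFT1, squalene synthase, had 153, 170 and 177 CPM and then 345 and 388 CPM (log2 1.14). In all 3 genes both 24 h libraries were above every 15 h library. The gene of the driving factor itself, SREBF2, rose from 127, 133 and 142 CPM to 243 and 266 CPM (log2 0.93). Its window was the only one of 18 matched members (5.56%, against 1.39% of all genes in the table) with the sterol element letters TCACNCCAC on either strand. It is shown, chosen after that match was seen, with those letters in capitals because its gene both encodes the factor and rose with the pathway.
SREBF2, chr22:41832952-41833000, plus strand: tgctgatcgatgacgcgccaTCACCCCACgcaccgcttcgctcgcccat
That the letters are not in the other windows says nothing of the factor there.

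Fatty acid synthesis followed the same course. Of 17 tested members, 14 rose and none fell, with a median log2 change of 0.51. SCD, the desaturase that makes oleate, had 833, 890 and 968 CPM at 15 h and 2340 and 2720 CPM at 24 h (log2 1.49 ± 0.09, adjusted p = 3.6e-14, edgeR). FADS2, which desaturates polyunsaturated fatty acids, rose from 34.4, 40.9 and 45.8 CPM to 151 and 166 CPM (log2 1.97), and ACSS2, which makes acetyl-CoA from acetate, from 36.8, 36 and 40.2 CPM to 104 and 111 CPM (log2 1.51). ACLY, which makes cytosolic acetyl-CoA from citrate, went from 388, 402 and 407 CPM to 830 and 846 CPM (log2 1.07). The rise of ACLY was larger than with DMSO by 0.43 (adjusted p = 0.0019, edgeR), which did not pass without replicate 3 of DMSO at 24 h. That of FADS2 was larger by 0.43 (adjusted p = 0.048, edgeR), which did not pass in 14 of 19 alternative analyses.

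With DMSO the sterol list had 22 members higher and none lower, with a median log2 change of 0.57, and no member passed the interaction. The fatty acid list had 12 higher and 1 lower with DMSO, and 4 members rose more in palbociclib. At 24 h the sterol list's mean log2 CPM was 6.95 and 6.91 in DMSO, below both palbociclib libraries. From 9 to 12 h in palbociclib, 16 of the 24 sterol members had already risen, against 5.22% of all genes higher and 6.71% lower in that step.

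Clock genes changed in the same way with drug and vehicle. Of 18 tested, 9 rose and 2 fell in palbociclib (median log2 change 0.53), and 10 rose and 2 fell with DMSO (0.58), with no member passing the interaction. TEF, an output factor of the clock, had 1.19, 1.09 and 0.945 CPM at 15 h and 6.25 and 5.35 CPM at 24 h (log2 2.42 ± 0.22, adjusted p = 7.4e-10, edgeR). PER2, a repressor of the clock, rose from 5.28, 6.18 and 4.22 CPM to 16.4 and 17.7 CPM (log2 1.70), and CRY1, its partner, from 6.82, 9.25 and 7.82 CPM to 16.1 and 17.4 CPM (log2 1.06). ARNTL, the gene of the activator BMAL1, fell from 83.6, 89.5 and 86 CPM to 58.4 and 60.6 CPM (log2 −0.54). From 9 to 12 h in palbociclib the list had 1 member higher and 6 lower, with ARNTL rising by 0.55. Starved cells held 34.9, 35.1 and 32.1 CPM of TEF, above all palbociclib libraries. Without replicate 3 at 24 h, 5 clock members were called higher, and without replicate 2 or 3 at 15 h or replicate 1 at 24 h, 1 was called lower.

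Glucocorticoid targets, which cells in medium with hydrocortisone can express, were mixed, with 4 of 12 higher and 2 lower (1 lower without replicate 2 at 15 h or without either 24 h library). The background was 11.2% higher and 9.31% lower. TSC22D3, a glucocorticoid-induced leucine zipper protein, rose from 13.2, 15.5 and 15.4 CPM to 40.2 and 38.5 CPM (log2 1.41, adjusted p = 1.1e-12, edgeR), and the metallothionein MT1X fell from 40.1, 52 and 46.4 CPM to 21.8 and 23.6 CPM (log2 −1.03). The rises of DMBT1, a secreted mucosal scavenger protein (1.87, 1.42 and 2.02 CPM, then 9.47 and 7.82 CPM), and of the collagen-binding integrin ITGA10 (2.13, 2.19 and 2.4 CPM, then 11.1 and 10.2 CPM) were among the 12 largest. Both rose with DMSO as well, to 13 and 13.4 CPM and to 15.2 and 14.4 CPM.

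The largest well-measured fall was that of IGFBP3, which binds insulin-like growth factors outside the cell. Its level was 154, 178 and 166 CPM at 15 h and 22.6 and 21.1 CPM at 24 h (log2 −2.93 ± 0.12, adjusted p = 2.4e-17, edgeR; chromosome 7, 45912245 to 45921874). It had been between 179 and 232 CPM in all libraries of 9 and 12 h in palbociclib and 2.86 to 3.69 CPM in starved cells. With DMSO it reached 23.5 and 23.8 CPM at 24 h, and the difference between the steps was −0.02 (adjusted p = 0.98).

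Other large falls were in scaffold, adhesion and protease genes. AKAP12, a scaffold for protein kinase A, fell from 557, 598 and 497 CPM to 111 and 90.2 CPM (log2 −2.46 ± 0.13, adjusted p = 3.1e-15, edgeR), having been at 1180 to 1220 CPM at 9 h. NEDD9, a focal adhesion scaffold, fell from 14.1, 15 and 15.7 CPM to 2.84 and 3.09 CPM (log2 −2.33), and the metalloprotease ADAMTS15 from 10.1, 10.6 and 10.1 CPM to 1.42 and 1.72 CPM (log2 −2.68). LBH, a transcription cofactor of the mammary epithelium, fell from 8.35, 11.5 and 10.4 CPM to 1.99 and 1.92 CPM (log2 −2.38) after having risen by 0.99 between 9 and 12 h. That the groups did not overlap was part of the rule by which these 4 genes were named. LAPTM5, a lysosomal membrane protein, fell from 10.2, 9.69 and 8.76 CPM to 2.08 and 1.78 CPM (log2 −2.31).

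Reads were too few for a fold in some of the genes ranked highest. PIEZO2, a mechanosensitive channel, had 18 reads at 15 h and 0 at 24 h, so it was at least 3.29-fold lower (a floor of 3 counts over the group). By the same floor FAM9B (13 reads, then 0) was at least 2.37-fold lower and CRCT1 (11 reads, then 0) at least 2.01-fold lower. None of these 3 calls passed without replicate 2 at 15 h or without either 24 h library. CHI3L1, a secreted chitinase-like protein, had 62 reads in the 15 h libraries and 2 in the 24 h libraries, a ratio of 0.0589 (counting interval 0.00698 to 0.222).

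**Figure D5:**
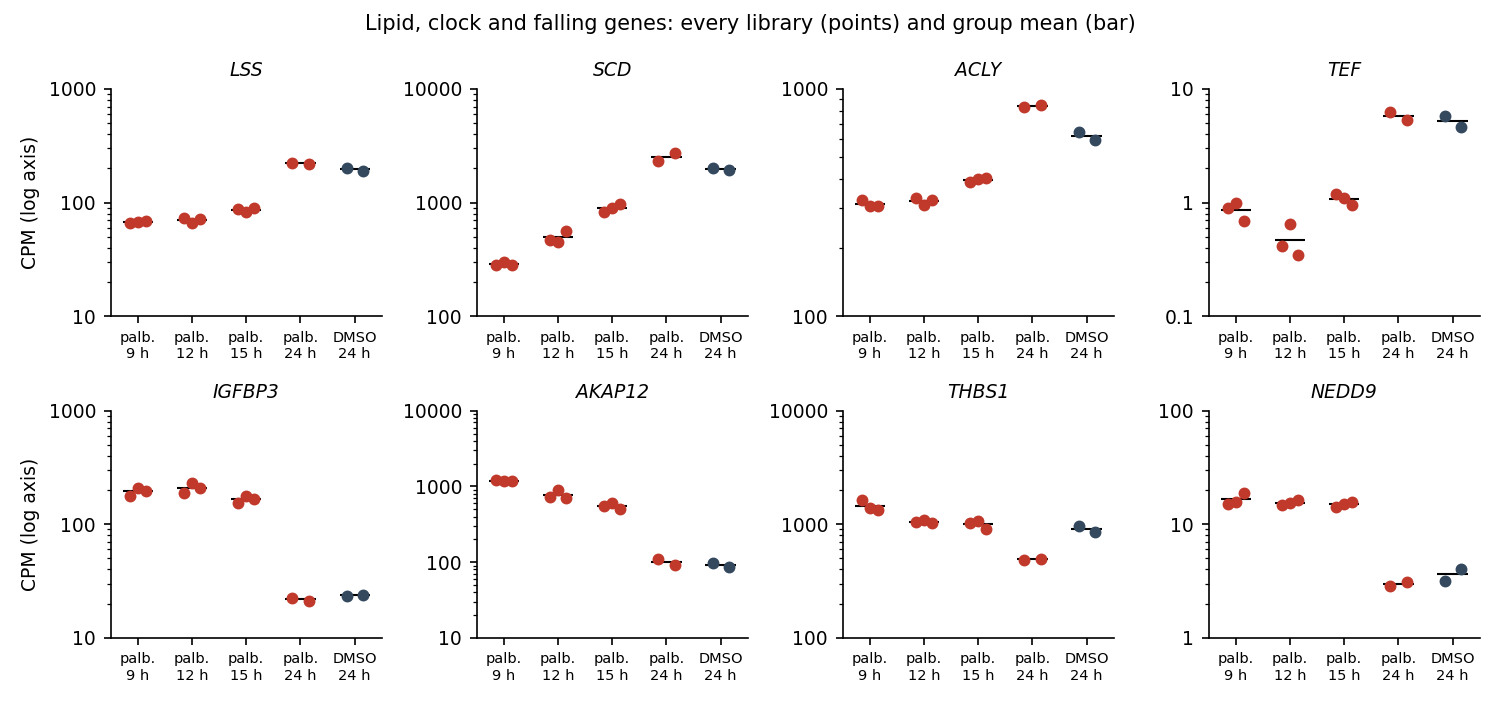
Level in every library (points, CPM on a log axis) and group mean (bar) of 8 genes in palbociclib at 9, 12, 15 and 24 h and in DMSO at 24 h. LSS, SCD, ACLY and TEF are highest in palbociclib at 24 h among the palbociclib groups, and IGFBP3, AKAP12, THBS1 and NEDD9 are lowest there, with THBS1 alone at 489 and 498 CPM against 960 and 858 CPM in DMSO.

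Targets of TGF-beta and of the YAP cofactor were lower at 24 h. Of 21 tested, 9 fell and 3 rose (median log2 change −0.24), against 13 lower and 3 higher with DMSO. PMEPA1 and SMAD7, both feedback inhibitors of TGF-beta signalling, fell from 569, 638 and 612 CPM to 263 and 247 CPM (log2 −1.25, adjusted p = 7.4e-13, edgeR) and from 16.4, 18.2 and 17.8 CPM to 8.24 and 5.9 CPM. THBS1, the matrix protein thrombospondin, fell from 1020, 1060 and 907 CPM to 489 and 498 CPM (log2 −1.01), by more than with DMSO (difference −0.67, adjusted p = 0.0053). The receptor kinase AXL rose from 54, 49.6 and 52.2 CPM to 65.4 and 72.3 CPM, by less than with DMSO (difference −0.58).

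Actin and SRF targets had 9 of 16 members lower and none higher (edgeR; 2 of 16 fitted changes were positive), with a median log2 change of −0.38. The tropomyosin TPM4 fell from 1030, 1200 and 1210 CPM to 658 and 718 CPM (log2 −0.74, adjusted p = 8.2e-07), and TAGLN, an actin-binding protein, from 158, 164 and 172 CPM to 94.5 and 110 CPM (log2 −0.69). With DMSO 13 fell and 1 rose. In the matrix and proteolysis list, 13 of 24 fell and 3 rose (median −0.36), and without replicate 1 at 24 h 9 fell. LOX, which crosslinks collagen, fell from 47.8, 58.6 and 54.5 CPM to 20.9 and 21.4 CPM (log2 −1.35), by more than with DMSO (difference −0.49, adjusted p = 0.02, edgeR), which did not pass without replicate 2 at 15 h, either palbociclib library of 24 h or replicate 3 of DMSO at 24 h. COL4A1, of basement membrane collagen, fell from 199, 196 and 210 CPM to 111 and 102 CPM. MMP28, an epithelial metalloprotease, rose from 45.5, 42.1 and 47 CPM to 63.1 and 72.3 CPM (log2 0.60), and was 40.9 and 41.2 CPM in DMSO at 24 h (difference 0.54, adjusted p = 0.0021, edgeR; not passed without replicate 3 of palbociclib at 24 h).

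Epithelial identity genes went both ways. Of 18 basal markers, 7 rose and 5 fell, with KRT14 rising from 450, 471 and 489 CPM to 632 and 723 CPM (log2 0.53) and KRT17 falling from 2500, 2480 and 2650 CPM to 1640 and 1740 CPM (log2 −0.59). Without replicate 3 at 24 h, 2 basal markers were called higher, without replicate 1 at 15 h 3, and without replicate 2 at 15 h 4. Luminal markers had 3 of 7 higher and 2 lower, and general epithelial markers 4 of 8 higher and none lower. Without replicate 3 at 24 h, 0 luminal and 1 epithelial marker were called higher. CDH1, E-cadherin, had 240, 254 and 265 CPM and then 298 and 324 CPM (log2 0.30, adjusted p = 0.00097, edgeR), which did not pass without replicate 3 at 24 h. Of 11 tested mesenchymal markers, 5 fell and 2 rose (1 without replicate 3 at 24 h). SNAI1, a repressor of E-cadherin, fell from 1.11, 1.42 and 1.7 CPM to 0.189 and 0.137 CPM (adjusted p = 5.3e-05, edgeR). Its reads at 24 h were very few, so the size of its fall is less certain than its direction. DCN, the matrix proteoglycan decorin, fell from 11.6, 11.9 and 12.7 CPM to 5.11 and 4.12 CPM. The summed level of the 16 mesenchymal markers was 1710 to 1840 CPM at 15 h and 1840 to 1940 CPM at 24 h, with COL3A1 and LUM at 0.

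Squamous differentiation genes had 7 of 17 lower and 2 higher, against 9.31% and 11.2% of all genes. IVL, the envelope protein involucrin, fell from 15.2, 16.9 and 13.6 CPM to 5.3 and 6.79 CPM (log2 −1.31, adjusted p = 2.9e-08, edgeR), while TGM1, which crosslinks the envelope, rose from 22.1, 18.6 and 21.4 CPM to 30.8 and 36.1 CPM (log2 0.71). Without replicate 1 at 24 h, 2 members were called lower, and without replicate 3 at 15 h, 4, while without replicate 3 at 24 h 1 was called higher. The summed level of the list's 26 markers was 159 to 162 CPM at 15 h and 133 to 158 CPM at 24 h, with LOR, TGM3, KRTDAP and CRNN at 0. Their part in other results was not tested.

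Ligands and early genes of the growth factor response went both ways. In the ERK list 8 of 21 rose and 4 fell, against 11.2% and 9.31% of all genes. AREG, amphiregulin, which activates the EGF receptor, rose from 173, 205 and 193 CPM to 460 and 519 CPM (log2 1.36 ± 0.12, adjusted p = 3.8e-10, edgeR), and TGFA, another ligand of that receptor, fell from 198, 199 and 203 CPM to 126 and 138 CPM (log2 −0.60). FOSL1, a subunit of AP-1, fell from 104, 109 and 102 CPM to 73.7 and 79.5 CPM (log2 −0.45) and was 127 and 136 CPM in DMSO at 24 h (difference −0.63, adjusted p = 0.00045). Without replicate 3 at 24 h, 5 ERK members were called higher. In the immediate early list 2 of 23 rose and 5 fell. JUN fell from 150, 146 and 157 CPM to 65.8 and 67.3 CPM (log2 −1.18), and MYC rose from 378, 385 and 374 CPM to 506 and 549 CPM (log2 0.48, adjusted p = 0.0029), which did not pass without replicate 3 at 24 h. Without that library 3 of the immediate early genes were called lower and none higher. Without replicate 1 at 24 h or replicate 2 at 15 h, 3 were called lower and 1 higher, and without replicate 1 at 15 h 1 was called higher.

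Stress and quiescence genes showed small shifts. In the FoxO and quiescence list 11 of 25 rose and 1 fell (median log2 change 0.31), close to the 14 and 1 with DMSO. MXI1, a MAX-binding antagonist of MYC, rose from 12.2, 13.9 and 14.1 CPM to 17.7 and 21.1 CPM (log2 0.53; not passed without replicate 3 at 24 h), and CCNG2, an unusual cyclin of resting cells, fell from 120, 145 and 133 CPM to 101 and 94.4 CPM (log2 −0.45, adjusted p = 0.00011, edgeR). Without replicate 3 at 24 h, 4 FoxO members were called higher, and without replicate 1 at 15 h, 6. MXD4, a relative of MXI1, rose by 0.27 in palbociclib and differed from DMSO by 0.38 (adjusted p = 0.011, edgeR), which did not pass without replicate 3 of palbociclib or either DMSO library of 24 h. NRF2 targets had 9 of 19 higher and 2 lower, such as PGD of the pentose phosphate pathway, which rose from 82.7, 94 and 85.3 CPM to 158 and 182 CPM (log2 0.96).

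ATF4 and unfolded protein genes split, with 5 of 24 higher and 5 lower, against 14 higher and 5 lower with DMSO. Of all genes, 11.2% were higher and 9.31% lower in palbociclib. No member passed the interaction upward and 7 passed it downward. HERPUD1, of endoplasmic reticulum degradation, had 86.9, 94.3 and 92.5 CPM at 15 h and 43.9 and 46.9 CPM at 24 h (log2 −1.01, adjusted p = 2.7e-10, edgeR), after a rise of 1.07 between 9 and 12 h. TRIB3, an ATF4 target, rose from 69.7, 66.9 and 72.3 CPM to 111 and 108 CPM (log2 0.65). SLC7A11, the cystine transporter, rose from 39.6, 43.6 and 36.7 CPM to 66.6 and 65.8 CPM (log2 0.73), by less than with DMSO (difference −0.74, adjusted p = 0.0044, edgeR; not passed without replicate 3 of DMSO at 24 h). Without replicate 1 at 24 h, 3 members of this list were called lower.

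Genes of energy metabolism were mixed, beside a background of 11.2% higher and 9.31% lower. In the glycolysis and hypoxia list 4 of 22 rose and 4 fell, with NDRG1, a hypoxia-induced gene, falling from 443, 443 and 511 CPM to 223 and 271 CPM (log2 −0.91, adjusted p = 4.2e-09, edgeR) and the aldolase gene ALDOC rising from 6.99, 9.47 and 9.96 CPM to 16.9 and 21.6 CPM (log2 1.12). Without replicate 2 at 15 h, 2 members were called higher, and without replicate 1 at 24 h, 7. Respiratory chain genes had 6 of 26 higher and none lower, by a median of 0.18, and all 26 fitted changes were positive. The respiratory count rested on the 24 h libraries, with 10 higher without replicate 1 and 0 higher without replicate 3.

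Defence genes had more calls downward than upward in 2 of 3 lists. In the complement and secreted defence list 6 of 15 fell and 1 rose (median −0.36), and without replicate 1 at 24 h 3 fell. C1R, a protease that starts the complement cascade, fell from 17.9, 17.4 and 17.1 CPM to 7.86 and 8.99 CPM (log2 −1.04, adjusted p = 0.00013, edgeR). In the interferon and antigen presentation list 4 of 32 rose and 4 fell (median 0.04), a count near the background. GBP2, an interferon-induced GTPase, had 14.8, 15.8 and 17.1 CPM at 15 h and 2.18 and 5.22 CPM at 24 h (log2 −2.03). Interferon calls depended on single libraries: without replicate 2 at 15 h none was higher, without replicate 3 at 24 h none was higher, without replicate 3 at 15 h 2 were higher, and without replicate 1 at 24 h 1 was higher and 1 lower. Of 14 cytokine genes of the NF-kB response, 3 fell and none rose, against 9.31% and 11.2% of all genes. Among those that fell was CXCL3, a neutrophil chemokine (4.35, 5.91 and 4.66 CPM, then 1.89 and 2.54 CPM).

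The lysosome list had 6 of 24 higher and 5 lower, with GPNMB, a melanosomal and lysosomal glycoprotein, falling from 35.3, 31.1 and 40.1 CPM to 8.62 and 8.78 CPM (log2 −2.03, adjusted p = 1.4e-14, edgeR), and without replicate 1 at 24 h 1 member was called lower and without replicate 3 at 15 h 3. Targets of p53 had 3 of 26 higher and 3 lower, a share near the background, and without replicate 3 at 24 h none was called higher and 1 lower, and without replicate 1 at 24 h none was called lower. Ribosome biogenesis genes had 1 of 38 higher and 1 lower, below the background in both directions, and cytosolic ribosomal protein genes 1 of 24 higher and none lower. Polyadenylated histone genes had 2 of 13 lower and none higher, against 9.31% and 11.2% of all genes. These counts of 1 or 2 moved to between 0 and 3 with single libraries left out. From 9 to 12 h in palbociclib, 18 of the 38 ribosome biogenesis genes had fallen.

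The late step was set beside the earlier step from 9 to 12 h in palbociclib. Of the genes that rose from 15 to 24 h, 225 had also risen from 9 to 12 h (12.8%) and 157 had fallen (8.92%). Of the genes that fell, 192 had also fallen (13.1%) and 161 had risen (11%). Over all tested genes, 5.22% rose and 6.71% fell from 9 to 12 h, so the shares were above these in the same and in the opposite direction. The 2 steps share no library, and over 15787 genes their log2 changes had a Pearson r of 0.0478, given as a description. From 9 to 12 h, 3 of 65 E2F members and 2 of 52 G2/M members were called higher, near the 5.22% of all genes.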

How the data were processed

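Per the labels' protocols, poly(A) RNA was made into stranded libraries and read from one end. The submitters' processing notes name FastQC 0.11.3, TopHat2 2.1.1, Bowtie2 2.2.9, Subread 1.5.1 and build GRCh38.p7. The deposited files hold unnormalized read counts by gene name, made by featureCounts on GENCODE exons without a strand option per the file headers, so that overlapping genes are uncertain. In R 4.3.3 with edgeR 4.0.16, 15787 of 56269 names passed filterByExpr. TMM factors were computed, and 1 quasi-likelihood model of all 31 libraries by group (20 residual degrees of freedom, common biological coefficient of variation 6.55%) gave each contrast. Calls used a Benjamini-Hochberg adjusted p under 0.05 over all tested genes. The SE was obtained by dividing the size of the log2 change by √F. Levels are CPM with TMM factors, and list means use log2 CPM with a prior count of 2. The model was tested on simulated counts. Alternatives were DESeq2 1.42.0, other scaling and filters, a replicate block, an exon length correction and left-out libraries.

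The comparison, the gene lists (31, with 711 genes) and the rule for named genes were chosen with earlier results of these data known. Named genes were a set of cell cycle regulators, the 12 largest rises and 12 largest falls among called genes (mean log2 CPM 1 or more, with a symbol, groups not overlapping), the 5 largest differences from DMSO each way, and for every list the 4 members with the smallest p in each direction. Other genes are marked in the text as chosen after their values were seen. Some named genes are not reported here.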

Additional observations from a re-analysis of the deposited data

Results flagged for a closer look

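For 30 of the named genes the change from 15 to 24 h in palbociclib differed from the change over the same interval with DMSO, by the interaction test of edgeR at an adjusted p below 0.05. All values here are differences in log2 change, palbociclib minus DMSO. Replication and G1/S genes changed more upward in palbociclib: FAM111B by 4.47, MCM10 by 3.94, E2F1 by 2.74, CDC6 by 2.23, DTL by 2.14, MCM5 by 1.67, ORC6 by 1.43, CCNE1 by 1.20 and MCM2 by 1.10. SHCBP1 (1.39), MMP28 (0.54), FADS2 (0.43), ACLY (0.43) and MXD4 (0.38) did so too. SHCBP1 did not pass without replicate 2 or 3 of palbociclib at 15 h or either palbociclib library of 24 h.

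Genes of mitosis changed more downward in palbociclib: KIF20A by −3.59, PLK1 by −3.27, PSRC1 by −3.16, CCNB1 by −2.44, CCNA2 by −1.57, ASPM by −1.32, ECT2 by −0.81 and ANLN by −0.73. The DNA helicase gene PIF1 changed more downward by −8.19, a fitted value from a gene with 0 to 0.341 CPM in the palbociclib libraries of 15 and 24 h. NEURL1B (−2.87), CDKN1B (−0.998), SLC7A11 (−0.74), THBS1 (−0.67), FOSL1 (−0.63), AXL (−0.58) and LOX (−0.49) also changed more downward. Explanations for these differences were not tested.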

How the results depend on the processing

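Of 189 named genes called in the late palbociclib step, 117 kept their call under each of 16 alternatives, 72 lost it under at least 1, and 0 reversed. The count of genes called higher, 1761, was 868 to 1410 when 1 of the 5 libraries was left out, and the count called lower, 1469, was 900 to 1569. Without replicate 3 of the palbociclib groups and of DMSO at 24 h, an alternative chosen after seeing the data, 628 were higher and 787 lower. With only the 5 libraries compared, 124 genes were lower by at least 2-fold, against 194. A replicate block on the palbociclib libraries alone, an alternative that was not planned, gave 2035 higher and 1910 lower. For the difference from DMSO, 167 genes were higher and 303 lower, and 62 to 189 and 176 to 350 with single libraries left out. Its higher count was 105 with only replicates 1 and 3 and 99 with only the libraries compared. The cause of these shifts was not tested, apart from the fewer samples or genes that the construction gives. Scaling moved the share of calls that were higher from 54.5% to 50% with DESeq2 size factors and 56.1% with library totals, and the DESeq2 Wald test called 1468 higher and 1504 lower. The 2 palbociclib libraries of 24 h differed with exon length. Replicate 1 minus replicate 3 had a Spearman correlation of 0.348 with log2 exon length over 9520 genes, against −0.0629 for the late log2 change. With the exon length trend removed, 1828 genes were higher and 1773 lower.

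Replicate numbers were shared by only 2 pairs of libraries, whose deviations from their group means correlated at 0.58 and 0.555 over 9520 genes. Palbociclib and DMSO libraries of 15 h correlated at 0.351 for replicate 1 and at −0.315 for replicate 3. Those of 24 h correlated at 0.453 for replicate 1. Replicate 3 of palbociclib at 24 h correlated at −0.42 with replicate 3 of the starved cells. In a group of 2 libraries, such as those of 24 h, the deviations from the group mean mirror each other. The correlations that use 24 h libraries, 0.58 and 0.555 among them, are therefore not independent. For the same reason the 0.453 between the 24 h groups of palbociclib and DMSO holds for replicate 3 as well. With 2 pairs and no shared batch in the labels, the numbers were not taken as pairs. With the replicate block the late step had 2061 genes higher and 1555 lower, and the difference from DMSO 220 and 407. With the replicate block and the exon length trend removed together, the difference had 332 higher and 513 lower. The number of libraries, 2 at 24 h, limits the precision.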
